A study of Saccharomyces cerevisiae with 21 samples.

Results

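A pair of yeast strains that carried almost no PHO84 RNA was compared, each against BY4741 cultures of its own series: Tpho84-Tcyc1, a construct at PHO84, and pho84Δ, a deletion of that gene. BY4741 is a haploid laboratory strain of Saccharomyces cerevisiae of mating type a and the parent of both. The comparison used 10 of the 21 RNA sequencing libraries of the series: BY4741 numbers 1 to 3 and Tpho84-Tcyc1 numbers 1 to 3 in series 1, and BY4741 numbers 4 and 5 and pho84Δ numbers 1 and 2 in series 2. The name Tpho84-Tcyc1 reads as the terminators of PHO84 and CYC1, but no label says what was altered, and none says whether either strain carries a marker gene. All 10 cultures were grown at 30 °C in synthetic medium with 7.2 mM phosphate and 50 mM KCl, started at an A620 of 0.1 and frozen at 0.5. The cultures of a strain were started from 1 overnight culture, so that no p-value covers the spread between strains made separately. Of 7123 features with values, 5798 had at least 1 RPM (reads-per-million unit) in at least 2 of the 10 libraries and were tested in both effects, and the other 1325 were not.

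The PHO pathway adjusts gene expression to phosphate. When phosphate is plentiful, the Pho80-Pho85 kinase keeps the transcription factor Pho4 out of the nucleus; when it is scarce, the inhibitor Pho81 acts on the kinase and Pho4 turns on its targets. The targets include PHO84, which encodes the main high-affinity phosphate importer of the plasma membrane, secreted acid phosphatases such as Pho5, and enzymes that make and store polyphosphate. Transcription also runs antisense to PHO84 and through other phosphate genes, and where a transcript ends can matter for its neighbours. The terminator of CYC1, the gene of iso-1-cytochrome c, is widely used in yeast constructs.

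In both strains PHO84 RNA was nearly gone, while 8 of the 20 members of the PHO regulon list differed between the effects. Only the deletion raised PHO5, PHO89, GIT1, PHM6 and PHO11, and only in the construct did SPL2 and PHO12 fall; the tests of these differences stand below. Outside the PHO genes, 21 of 24 stress genes rose and 22 of 25 ribosome biogenesis genes fell in the construct. The difference was called above 0 for 12 of the former and below 0 for 13 of the latter. Over all genes tested, 13.7% rose and 8.55% fell in the construct, and the difference was above 0 for 2.85% and below 0 for 3.69%. With all 5 BY4741 libraries as control, the construct counts were 16 stress genes higher and 9 ribosome biogenesis genes lower. In all, 9 genes were called in both effects in the same direction.

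A gene was called at an adjusted p under 0.05 from limma, a linear model fitted over all genes at once on log2(RPM + 1), with Benjamini-Hochberg adjustment over the 5798 genes. The construct effect is Tpho84-Tcyc1 minus BY4741 of series 1, the deletion effect is pho84Δ minus BY4741 of series 2, and the difference is the construct effect minus the deletion effect. With all 5 BY4741 libraries as the control of both effects, BY4741 cancels from the difference. What remains is the construct minus the deletion across the series, and the spread between the BY4741 groups enters its error. The main fit, with 1 mean for each of the 4 groups, keeps that spread out. Effects are on the log2(RPM + 1) scale with the standard error (SE) of the fit, and adding 1 RPM understates the effects of genes near or below 1 RPM. In the construct, 794 genes (13.7%) were called higher and 496 (8.55%) lower. In the deletion, 23 genes (0.397%) were called higher and 6 (0.103%) lower. The difference was called above 0 for 165 genes (2.85%) and below 0 for 214 (3.69%). With libraries rescaled by TMM factors, the counts of higher and lower calls became 483 and 691 in the construct, 21 and 10 in the deletion, and 133 and 293 in the difference. Leaving out 1 library at a time gave 711 to 1592 calls in the construct, 13 to 385 in the deletion and 66 to 545 in the difference. The construct count was 711 without BY4741 library 2 and 832 without construct library 3. The deletion count was 385 without BY4741 library 4, 18 without BY4741 library 5, 13 without deletion library 1 and 15 without deletion library 2. The difference count was 149 and 246 without BY4741 libraries 2 and 3, 179 without construct library 3, and 116 and 66 without deletion libraries 1 and 2. The counts of the 2 effects are not on an equal footing, since the construct effect had 3 libraries against 3 and a median SE of 0.080, and the deletion effect 2 against 2 and a median SE of 0.098. The 10 libraries held 13.9 to 49.8 M reads, so that 3 reads stood for 0.0602 to 0.215 RPM.

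The targeted gene was read first. PHO84 stood at 157, 135 and 76.2 RPM in BY4741 of series 1 and at 136 and 130 RPM in BY4741 of series 2. The construct libraries held 0.807, 1.42 and 1.23 RPM, and the deletion libraries 0.143 and 0.0771 RPM, which is 2 reads in each. All 5 mutant libraries thus stood far below all 5 BY4741 libraries, as the label pho84Δ states for the deletion; no label states a loss for the construct. Over all reads, PHO84 was 109 times (exact 95% interval 88.7 to 134, counting error only) lower in the construct than in its BY4741 libraries. The deletion held 4 reads in 39.9 M against 4199 reads in 31.6 M, a ratio of 1327 (518 to 4872). Between the mutants, the construct held 95 reads in 91.4 M, which is 10.4 times (3.92 to 38.8) the rate in the deletion. The fitted difference for PHO84 was 1.13 ± 0.32 (SE), with an adjusted p of 0.0574 in limma, and it grew as the pseudocount shrank, so that it bounds nothing.

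**Figure D1:**
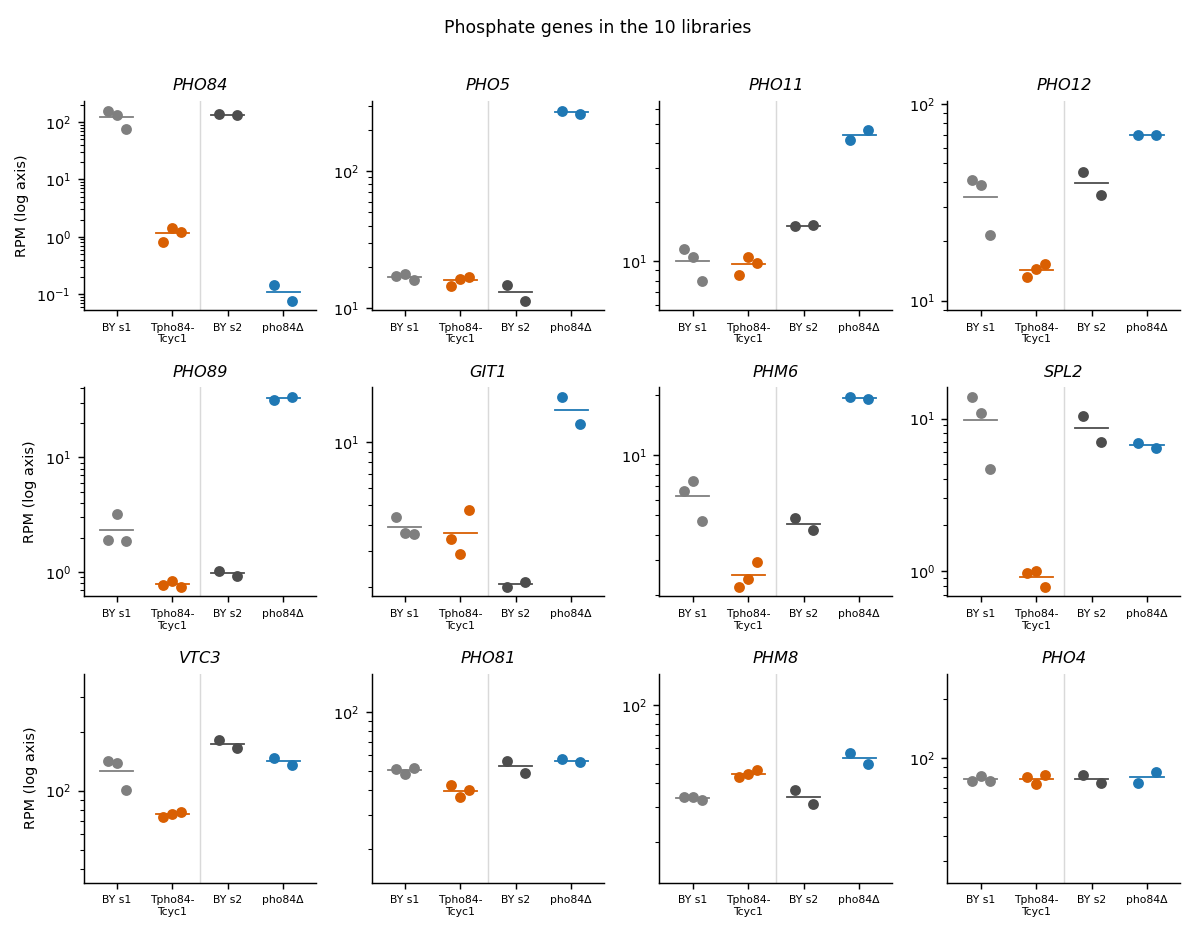
Level of 12 phosphate genes in RPM, on log axes that differ in range between panels, in BY4741 of series 1 (BY s1, n = 3), Tpho84-Tcyc1 (n = 3), BY4741 of series 2 (BY s2, n = 2) and pho84Δ (n = 2); a point is a library and a line the group mean. PHO84 is low in both mutants, PHO5, PHO89, GIT1, PHM6 and PHO11 stand highest in pho84Δ, and SPL2 is low in Tpho84-Tcyc1 alone.

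Of the acid phosphatases, which release phosphate from organic esters outside the cell, PHO5 parted most. Its level was 17.1, 17.9 and 15.9 RPM in BY4741 of series 1 and 14.6, 16.4 and 16.9 RPM in the construct. In series 2 it was 14.7 and 11.3 RPM in BY4741 and 276 and 261 RPM in the deletion. The construct overlapped its control, and both deletion libraries stood above the other 8. PHO5 rose by 4.28 ± 0.12 in the deletion (limma adjusted p = 1.41e-10), while the construct effect was -0.08 ± 0.10 (limma adjusted p = 0.568, 95% interval -0.29 to 0.13). The difference was -4.36 ± 0.15 (limma adjusted p = 2.87e-09). PHO3, a constitutive acid phosphatase that lies beside PHO5 in the genome, ranged from 125 to 166 RPM over the 10 libraries and was called in neither effect.

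PHO11 and PHO12 encode nearly identical acid phosphatases, and reads may be shared between them, so that each value is uncertain. For PHO11 the 3 construct libraries held 8.58 to 10.6 RPM, within the 7.95 to 11.5 RPM of their control. The deletion held 41.5 and 46.4 RPM against 15.1 and 15.3 RPM, and the difference was -1.51 ± 0.19 (limma adjusted p = 0.00102). PHO12 moved in the other strain: it stood at 41.1, 38.6 and 21.5 RPM in BY4741 of series 1 and at 13.2, 14.4 and 15.4 RPM in the construct. There PHO12 fell by 1.12 on the log2 scale (SE 0.19, limma adjusted p = 0.00151). In series 2 the 2 deletion libraries at 69.7 and 69.6 RPM lay above BY4741 at 45.2 and 34.3 RPM, an effect of 0.81 ± 0.23 that was not called (limma adjusted p = 0.182). The difference for PHO12 was -1.93 ± 0.29 (limma adjusted p = 0.00332).

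Of the transporters on the PHO regulon list, PHO89 and GIT1 had called differences. PHO89, the sodium-coupled phosphate importer, was at 31.8 and 33.6 RPM in the deletion and at 1.03 and 0.933 RPM in its control. In series 1 it was at 1.90, 3.22 and 1.89 RPM in BY4741 and at 0.767, 0.841 and 0.745 RPM in the construct. It is 1 of 2 genes called in opposite directions: it rose by 4.09 ± 0.19 in the deletion and fell by 0.88 on the log2 scale in the construct (SE 0.16, limma adjusted p = 3.52e-08 and 0.00212). The fall in the construct lost its call with all 5 BY4741 libraries as control (-0.59, limma adjusted p = 0.159). The difference, -4.97 ± 0.25 (limma adjusted p = 1.13e-07), was called under every alternative.

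GIT1, a permease for glycerophosphoinositol, had 16.5 and 12.2 RPM in the deletion against 2.00 and 2.11 RPM in BY4741 of series 2. BY4741 of series 1 held 3.61 to 4.36 RPM and the construct 2.89 to 4.69 RPM, so that these overlapped. Its difference was -2.39 ± 0.25 (limma adjusted p = 0.000179). PHM6, a gene of unknown function whose RNA follows phosphate, is the second gene called in opposite directions. It stood at 6.65, 7.39 and 4.72 RPM in BY4741 of series 1, at 2.20, 2.42 and 2.94 RPM in the construct, at 4.85 and 4.23 RPM in BY4741 of series 2, and at 19.5 and 19.0 RPM in the deletion. The construct libraries were the lowest of the 10 and the deletion libraries the highest, and the difference was -2.90 ± 0.23 (limma adjusted p = 2.45e-05).

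SPL2 showed the reverse arrangement. It encodes a small protein that holds back low-affinity phosphate uptake and, like PHO84, is a strong target of Pho4. BY4741 of series 1 held 13.8, 10.9 and 4.66 RPM, and the construct 0.969, 0.999 and 0.789 RPM. In series 2 the values were 10.3 and 7.03 RPM in BY4741 and 6.96 and 6.44 RPM in the deletion. The construct stood below all other libraries, where SPL2 fell by 2.38 on the log2 scale (SE 0.27, limma adjusted p = 0.000121). The deletion effect was -0.31 ± 0.33 (limma adjusted p = 0.703, 95% interval -1.03 to 0.40). The difference, -2.07 ± 0.43 (limma adjusted p = 0.0152), lost its call without either deletion library (0.0695 and 0.0710). In pho4Δ, a strain of series 2 outside this comparison, SPL2 was at 0.606 to 1.04 RPM, a level like that of the construct.

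Of the genes that make and store polyphosphate, VTC3 and VTC4 fell in the construct and were not called in the deletion. VTC3 had 141, 138 and 101 RPM in BY4741 of series 1 and 73.9, 76.1 and 77.6 RPM in the construct, and 182 and 164 RPM against 147 and 135 RPM in series 2. Both mutants lay below their controls, and the difference for VTC3 was -0.43 ± 0.17 (limma adjusted p = 0.142), which leaves it undecided whether the effects part. VTC4 gave a difference of -0.33 ± 0.11 (limma adjusted p = 0.0781). VTC2 was called in neither effect, and VTC1 fell by 0.33 in the construct, a call that was lost with all 5 BY4741 libraries as control (limma adjusted p = 0.483). PHO8, the vacuolar alkaline phosphatase, fell by 0.38 on the log2 scale in the construct, from 77.8 to 81.8 RPM to 60.2 to 61.3 RPM, and its difference was -0.45 ± 0.12 (limma adjusted p = 0.0379), a call lost without any 1 of 8 libraries (0.0613 to 0.157). PHO81, the kinase inhibitor, fell by 0.33 in the construct, with a difference of -0.43 ± 0.12 (limma adjusted p = 0.051). PHO86, needed to export Pho84 from the endoplasmic reticulum, had a difference of -0.31 ± 0.10 (limma adjusted p = 0.0759).

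PHM8, a phosphatase of lysophosphatidic acid and nucleotides, was the one PHO gene besides PHO84 that was called in both strains in the same direction. It had 33.9, 34.0 and 32.7 RPM in BY4741 of series 1 and 42.9, 44.4 and 46.6 RPM in the construct, and 36.7 and 31.4 RPM against 57.1 and 49.8 RPM in series 2. Neither mutant overlapped its control. The rises were 0.40 ± 0.08 and 0.64 ± 0.10 (limma adjusted p = 0.00356 and 0.00641), and the difference was -0.23 ± 0.12 (limma adjusted p = 0.270). The call in the deletion was lost without BY4741 library 5 (0.0661) or deletion library 1 (0.213). PHO4, the activator itself, lay between 73.7 and 84.7 RPM in all 10 libraries, with a difference of -0.02 ± 0.11 (95% interval -0.26 to 0.22).

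Over the 20 members of the PHO regulon list, all of which were tested, 11 fell and 1 rose in the construct, and 1 fell and 6 rose in the deletion. Over all genes, 8.55% fell and 13.7% rose in the construct, and 0.103% fell and 0.397% rose in the deletion. The difference was called for 8 members, all below 0: PHO89, PHO5, PHM6, GIT1, SPL2, PHO12, PHO11 and PHO8. The median member had a construct effect of -0.32 and a deletion effect of 0.16, against 0.06 and 0.02 over all genes tested. DIA3, PHM7, GDE1 and CTF19, the remaining members, were called in neither effect. Of the 17 tested members of the list of PHO signalling and constitutive transport, none was called in the deletion, 3 rose and 2 fell in the construct, and the low-affinity transporter PHO90 and SYG1 had differences below 0 (-0.49 and -0.36), calls that were lost without any 1 of several libraries. PHO92, the remaining member, stayed at or under 0.438 RPM and was not tested.

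**Figure D2:**
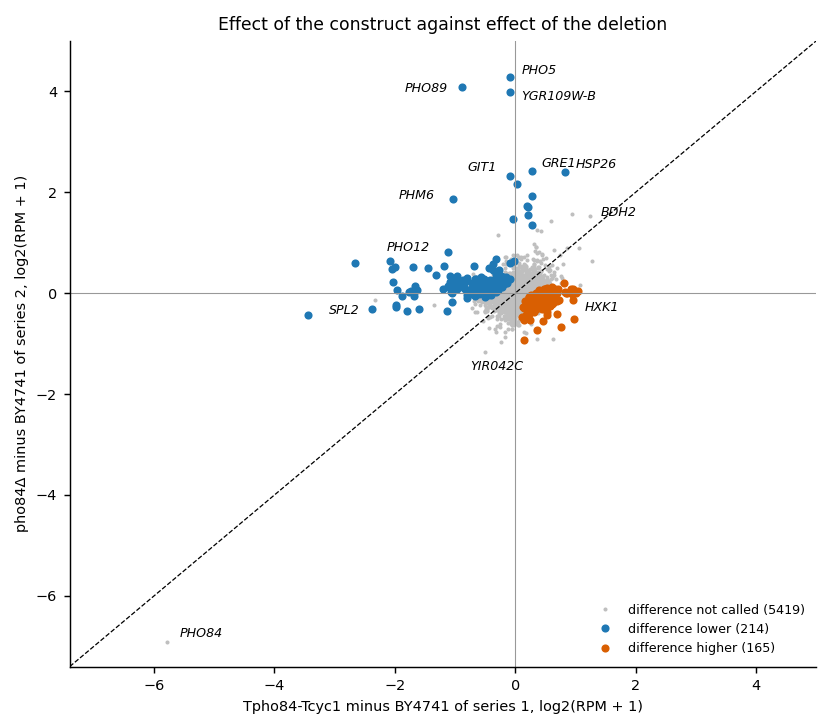
Construct effect (x axis) against deletion effect (y axis), both in log2(RPM + 1), for the 5798 genes tested; a point is a gene, colour marks genes whose difference was called (165 above 0, 214 below 0), and the dashed line marks equal effects. PHO84 lies far below 0 on both axes, PHO5 and PHO89 lie highest on the y axis, and most coloured genes spread along the x axis.

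Across genes the effects were weakly correlated. Pearson's r between them was 0.145 and Spearman's rho 0.066 over the 5798 genes, which are not independent replicates, and the effects share no library. Of the 794 genes called higher in the construct, 64.7% had a deletion effect above 0, against 56.4% of all genes. Among the 496 called lower, 40.9% had a deletion effect below 0, against 43.6% of all genes. The genes called in both effects in the same direction, 9 in number, made up 0.698% of the construct list and 31.0% of the deletion list, where 22.2% of all genes were called in the construct in either direction. Leaving out 1 library moved the 9 to between 4 (without BY4741 library 5 or deletion library 1) and 93 (without BY4741 library 4), with 5 without BY4741 library 2 or deletion library 2. They were PHO84, PHM8, BDH2, TKL2, FMP16, ICS2, HSP26, RPL27A and YIR042C; the difference was called for HSP26 and not for the other 8.

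BDH2, which resembles the butanediol dehydrogenase gene beside it, was the clearest shared rise. It had 10.6, 7.26 and 9.78 RPM in BY4741 of series 1 and 28.0, 19.0 and 22.0 RPM in the construct, and 8.14 and 6.09 RPM against 22.8 and 21.4 RPM in series 2. The mutants stood at like levels and above all BY4741 libraries, with effects of 1.23 ± 0.15 and 1.52 ± 0.19 (limma adjusted p = 0.000283 and 0.00107). Its difference was -0.29 ± 0.24 (95% interval -0.82 to 0.24), so that effects unequal by up to 0.82 remain within the error. In BY4741ΔP, the third strain of series 1, BDH2 was also above all BY4741 libraries, at 13.7 to 26.8 RPM, with PHO84 at 306 to 427 RPM. TKL2, a transketolase of the pentose phosphate pathway, rose by 0.93 ± 0.16 and 1.57 ± 0.19, from at most 2.00 RPM in any BY4741 library to 3.15 to 3.81 RPM in the construct and 5.74 to 7.32 RPM in the deletion. FMP16, a small gene of unknown function, rose by 0.85 ± 0.14 and 0.89 ± 0.18, and ICS2 by 0.31 ± 0.08 and 0.59 ± 0.10. ICS2 was at 29.1 to 30.1 RPM in BY4741ΔP, within the range of the mutants. YIR042C, uncharacterized, fell by 0.51 in the construct and fell by 1.17 in the deletion on the log2 scale, and RPL27A, of the large ribosomal subunit, by 0.24 and 0.40. The deletion calls of FMP16 and RPL27A were near the threshold (limma adjusted p = 0.047 and 0.0482) and were lost under most alternatives, and those of ICS2 and YIR042C were lost without BY4741 library 5 or either deletion library. The construct call of RPL27A was lost in 7 alternatives (limma adjusted p = 0.0632 to 0.340), among them without BY4741 library 2 or 3 or construct library 1 or 3. That of ICS2 was lost without BY4741 library 2 (0.0533) or construct library 2 (0.0528).

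HSP26, a small heat shock protein, rose in both strains but by unequal amounts. BY4741 of series 1 held 45.5, 43.1 and 34.7 RPM, and the construct 71.5, 76.6 and 70.9 RPM. BY4741 of series 2 started lower, at 23.7 and 21.1 RPM, and the deletion reached 134 and 112 RPM. The difference was -1.58 ± 0.16 (limma adjusted p = 0.000132), and with all 5 BY4741 libraries as control it was -0.74 (limma adjusted p = 0.0921). That value is the contrast of the mutants, which the main fit called (limma adjusted p = 0.000196).

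Beside the PHO genes, the deletion raised a mixed group. GRE1, a hydrophilin made under water stress, had 17.9 and 19.2 RPM in the deletion and 2.49 to 4.72 RPM in the other 8 libraries, with a difference of -2.14 ± 0.21 (limma adjusted p = 0.000126). HXT5, a hexose transporter made by slowly growing cells, had 11.5 and 10.1 RPM against 1.68 to 4.73 RPM (difference -1.65 ± 0.26, limma adjusted p = 0.0038). HPF1, a cell wall mannoprotein, had 44.7 and 32.4 RPM against 4.36 to 11.1 RPM (difference -2.14 ± 0.38, limma adjusted p = 0.00744). In each of these genes the deletion libraries stood above the other 8, and the call of the effect on HPF1 was lost without deletion library 1 (0.0666). The Ty3 retrotransposon reading frame YGR109W-B, whose copies share reads, had 30.6 and 34.2 RPM in the deletion and 0.0605 to 0.316 RPM in series 1. Its BY4741 libraries of series 2 were unlike each other, at 2.59 RPM (40 reads) and 0.249 RPM (4 reads), and the difference was -4.06 ± 0.45 (limma adjusted p = 0.000297). In pho4Δ, a strain of series 2 outside this comparison, YGR109W-B was at 30.1 to 31.4 RPM.

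The remaining rises of the deletion were small in level. SPS100, YCL048W-A, LEE1 and PDC6 were also called in the difference, and GND2, SIP18, YBR285W and DSE2 were not. The call in the difference was lost in 12 of 22 alternatives for LEE1, in 11 for PDC6, with a turned sign in 1 of them, and in 3 for SPS100. For YCL048W-A it was lost in 1, and the gene was not tested without either deletion library. LEE1, which encodes a zinc finger protein, had 5.95 and 4.36 RPM against 1.87 and 0.497 RPM. Of these 8 genes, SPS100, GND2 and YCL048W-A kept their call in the deletion without any 1 library of the other 3 groups. SPS100 and GND2 lost it without either deletion library. There YCL048W-A missed the filter and was not tested, so that its call is unknown. Of the 23 genes called higher in the deletion, 18 stood above the other 3 groups, and 9 stood above all 19 other libraries of the series. Over all genes, 11.2% stood above the other 3 groups in the deletion, and the 9 were not set against all genes. The calls used the same deletion libraries, so these counts describe the called genes and are not a test. Besides PHO84, YIR042C and RPL27A, the deletion lowered the ribosomal protein genes RPL23B, RPL35B and RPS10A. RPS10A had 1200.4 and 1211 RPM in the deletion, 1542 and 1578 RPM in its control, and 1577 to 1834 RPM in the construct. These genes have near-identical copies with which reads may be shared, and their calls were lost without BY4741 library 5 or either deletion library.

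Stress genes moved in the construct. On the list of 24 genes of the environmental stress response, which yeast turns on when growth slows or conditions worsen, 21 rose in the construct and none fell, and HSP26 alone was called in the deletion. Over all genes, 13.7% were called higher in the construct and 0.397% in the deletion. The median effect was 0.71 in the construct and 0.06 in the deletion, and the difference was above 0 for 12 members and below 0 for HSP26. The summed level of the list was 2703 to 2896 RPM in BY4741 of series 1, 3907 to 4473 RPM in the construct, 2621 to 2859 RPM in BY4741 of series 2 and 2820.5 to 2999.7 RPM in the deletion. With all 5 BY4741 libraries as control, 16 members rose in the construct and the difference was above 0 for 7. Not every member parted: CTT1, a catalase, rose by 0.61 in the construct with an effect of 0.55 in the deletion that was not called, and its difference was 0.06 ± 0.19 (limma adjusted p = 0.877). HSP12, a membrane-bound stress protein, rose by 0.76 in the construct, and its difference was 0.43 ± 0.25 (limma adjusted p = 0.311).

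Several genes of trehalose and glycogen metabolism, a grouping made after their values were seen, had differences above 0. TSL1, a subunit of trehalose synthase, had 146, 124 and 146 RPM in BY4741 of series 1 and 305, 231 and 305 RPM in the construct. In series 2 it had 225 and 181 RPM in BY4741 and 202 in each deletion library. The construct was the highest group and BY4741 of series 1 the lowest, and the difference was 1.00 ± 0.17 (limma adjusted p = 0.00694). With all 5 BY4741 libraries as control it was 0.46 (limma adjusted p = 0.152), a contrast of the mutants that the main fit called (limma adjusted p = 0.00866). GSY1, a glycogen synthase, rose by 0.97 ± 0.11 in the construct, from 25.4, 19.8 and 19.4 RPM to 44.2, 39.3 and 45.2 RPM. Yet BY4741 of series 2 held 55.3 and 46.3 RPM of it, more than the construct, and the deletion 36.6 and 34.0 RPM. Its difference was 1.48 ± 0.17 (limma adjusted p = 0.000328), and with all 5 BY4741 libraries as control it was 0.27 (limma adjusted p = 0.635). The main fit did not call this contrast of the mutants for GSY1 (limma adjusted p = 0.0788). GLC3, the glycogen branching enzyme, and GPH1, glycogen phosphorylase, rose in the construct by 0.92 and 1.08, with BY4741 of series 1 below all other groups in both genes.

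HXK1, a hexokinase, was highest in the construct itself. It had 372, 280 and 342 RPM there, 153, 160 and 194 RPM in BY4741 of series 1, 228 and 177 RPM in BY4741 of series 2, and 207 and 163 RPM in the deletion. The difference was 1.10 ± 0.20 (limma adjusted p = 0.00951) and was called with each choice of control, but not without deletion library 2 (0.0710). PGM2, HSP82, HSP42, DCS2 and GAD1, which encode a phosphoglucomutase, the Hsp90 chaperone, a small heat shock protein, a regulator of cap metabolism and glutamate decarboxylase, had differences of 0.87 to 1.00. In each of these 5 genes the construct stood above, and BY4741 of series 1 below, all other libraries of the 10 compared. In BY4741ΔP, the third strain of series 1, PGM2 reached 142 RPM, HSP82 796 RPM and HSP42 114 RPM, within the range of the construct. DCS2 and GAD1 stayed below the construct there. BY4741 of series 1 was below all other libraries of the whole series in none of the 5 genes. RGI1 (1.09) and YBR184W (0.91) were the remaining genes of the 10 largest differences above 0 among genes with a mean log2 level of 3 or more whose groups stood apart in an effect. The calls of PGM2, HSP42, GAD1 and YBR184W in the difference were also lost without deletion library 2. With all 5 BY4741 libraries as control, the differences of PGM2 (0.52), HSP82 (0.32), HSP42 (0.44), GAD1 (0.48) and YBR184W (0.48) lost their calls (limma adjusted p = 0.0905 to 0.330). The main fit called the same contrasts of the mutants in these genes (limma adjusted p = 0.00734 to 0.0278).

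**Figure D3:**
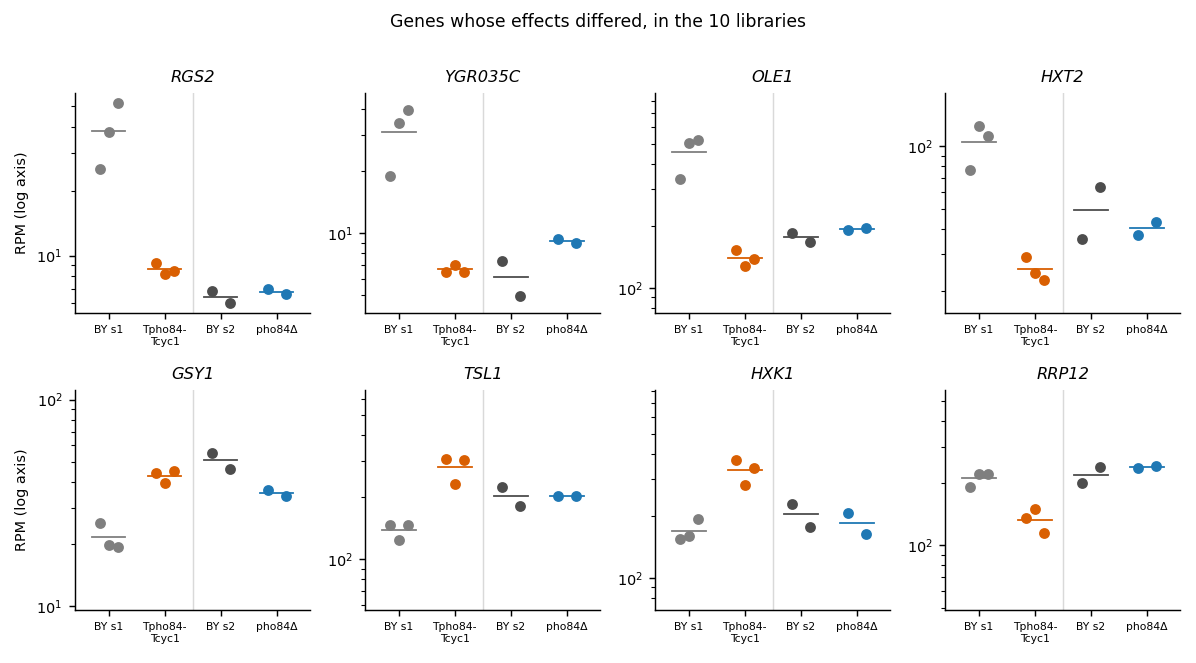
Level of 8 genes whose difference was called, in RPM on log axes that differ between panels; a point is a library and a line the group mean, with groups as in the plot of phosphate genes. BY4741 of series 1 stands apart in RGS2 and YGR035C, both BY4741 groups do in GSY1, the construct does in HXK1 and RRP12, and BY4741 of series 1 and the construct do in OLE1, HXT2 and TSL1.

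Genes of ribosome biogenesis, which process ribosomal RNA and assemble ribosomal subunits, went the other way. Of 25 members tested, 22 fell in the construct and none was called in the deletion, and the difference was below 0 for 13. Over all genes, 8.55% were called lower in the construct, 0.103% in the deletion and 3.69% in the difference. The absence of deletion calls is thus near what the share over all genes gives. Their median effect was -0.43 in the construct and 0.10 in the deletion. DBP2, an RNA helicase, had 419, 543 and 508 RPM in BY4741 of series 1 and 258, 243 and 189 RPM in the construct. In series 2 it had 287 and 339 RPM in BY4741 and 347 and 375 RPM in the deletion. Its difference was -1.30 ± 0.18 (limma adjusted p = 0.00188), which became -0.66 with all 5 BY4741 libraries as control (limma adjusted p = 0.0844). The main fit called that contrast of the mutants (limma adjusted p = 0.00133). RRP12, a factor for export of ribosomal subunits, had 136, 149 and 114 RPM in the construct and 191 to 242 RPM in the other libraries compared. Its difference was -0.80 ± 0.15 (limma adjusted p = 0.0108), and the call was lost without deletion library 2 (0.0685). With all 5 BY4741 libraries as control, 9 members fell in the construct and the difference was below 0 for 12. Of 20 cytosolic ribosomal protein genes none had a called difference, and their median effects were -0.11 and -0.19. All the same, 13 of these 20 members were lowest in the deletion, against 9.33% of all genes.

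Hexose transporters shifted between members. HXT1, HXT2, HXT3 and HXT4 fell in the construct, and HXT6, HXT7 and RGT2 rose; HXT6 and HXT7 are near-identical and may share reads. HXT2 had 76.7, 125 and 113 RPM in BY4741 of series 1, 29.0, 24.4 and 22.6 RPM in the construct, 35.4 and 63.5 RPM in BY4741 of series 2, and 37.1 and 43.1 RPM in the deletion. Of 10 tested members, 1 (HXT6) had a difference above 0 and 5 (HXT1 to HXT5) below 0. The call of HXT6 was lost in 11 of 22 alternatives, and that of HXT4 in 8, with a turned sign in 1 more. Those of HXT1 and HXT3 were each lost in 1 and turned in sign in 1 more, and HXT5 kept its call in all 22. Over all genes, 13.7% were called higher and 8.55% lower in the construct, and 2.85% and 3.69% in the difference. With all 5 BY4741 libraries as control, only 1 member had a called difference. The call of HXT2 in the difference (-1.74 ± 0.31, limma adjusted p = 0.00812) was lost without deletion library 2 (0.0590). The summed level was 1370.1 to 1697 RPM in BY4741 of series 1 and 887 to 1084 RPM in the other 3 groups. HXT10, HXT13 and GAL2 stayed under 1 RPM and were not tested.

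**Figure D4:**
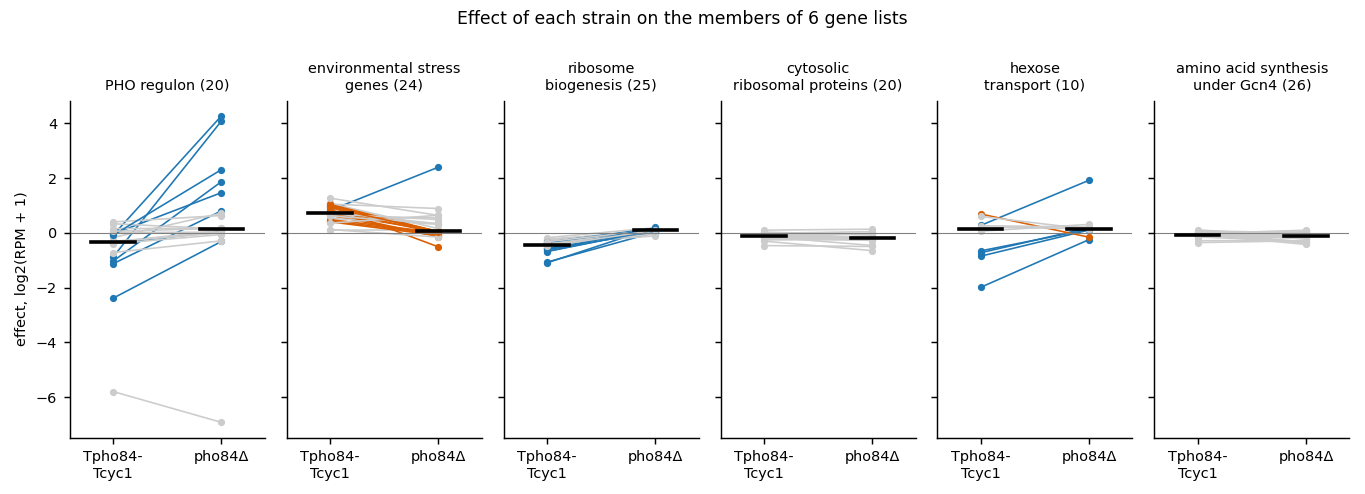
Construct effect and deletion effect, in log2(RPM + 1), of the tested members of 6 gene lists, with the number of members in parentheses; a line joins a gene's effects, blue and orange mark differences called below and above 0, and a black bar is the list's median. Stress genes stand above 0 and ribosome biogenesis genes below 0 in the construct, and both centre near 0 in the deletion, while PHO genes fan upward in the deletion.

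The BY4741 groups differ in many genes, which bears on every construct effect above. BY4741 of series 1 was called higher than BY4741 of series 2 in 1363 genes (23.5%) and lower in 1335 (23.0%), and strain, series and culture cannot be told apart there. Of the 379 genes with a called difference, only the construct effect was called in 334, only the deletion effect in 11, both in 3 and neither in 31. The BY4741 groups differed in 67.3% of the 379, against 46.5% of all genes, and the mutants differed from each other directly in 60.2%. The 379 were chosen on a difference that contains both of these contrasts, so the shares describe the called genes and are not tests. The 60.2% was not set against all genes.

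Among the 214 differences below 0, BY4741 of series 1 was above the other 3 groups in 112 genes (52.3%), against 6.4% of all genes. The construct was below the other 3 groups in 82 genes (38.3%, against 4.78%), the deletion above them in 37 (17.3%, against 11.2%), and BY4741 of series 2 below them in 32 (15.0%, against 7.33%). Among the 165 differences above 0, BY4741 of series 1 was below the other 3 groups in 81 genes (49.1%, against 12.8%) and the construct above them in 77 (46.7%, against 11.0%). The deletion was below the other 3 groups in 22 genes (13.3%, against 9.33%), and BY4741 of series 2 was above them in 20 (12.1%, against 3.14%). The called differences used the same libraries, so these shares describe which group carried them and are not tests.

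**Figure D5:**
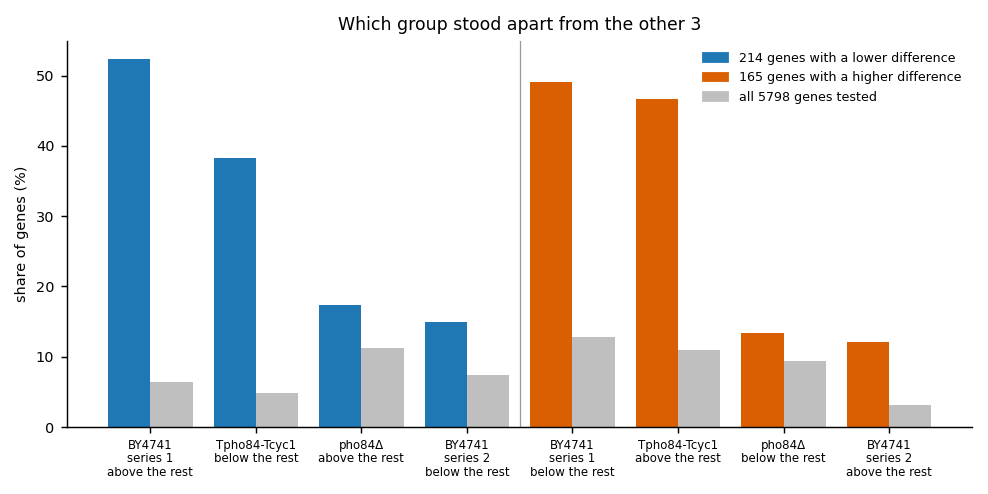
Share of genes, in percent, in which every library of the named group lay above or below all libraries of the other 3 groups: coloured bars for the 214 genes with a difference below 0 (left) and the 165 with a difference above 0 (right), grey bars for all 5798 genes. BY4741 of series 1 stood apart in 52.3% and 49.1% of the called genes.

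RGS2, a regulator of G protein signalling that takes part in glucose sensing, is an example. It had 25.3, 37.6 and 51.4 RPM in BY4741 of series 1 and 6.03 to 9.22 RPM in the other 7 libraries. Its difference of -2.03 ± 0.29 (limma adjusted p = 0.00191) became 0.31 (limma adjusted p = 0.783) with all 5 BY4741 libraries as control. Of the 10 largest differences below 0 named by rule, 7 had BY4741 of series 1 above every other group: YGR035C (-2.52), SCR1 (-2.26), MNC1 (-2.22), RGS2, STP4 (-1.95), OLE1 (-1.81) and YKR075C (-1.78). OLE1, the fatty acid desaturase, was at 337, 501 and 520 RPM there, at 128 to 152 RPM in the construct, at 185 and 166 RPM in BY4741 of series 2 and at 191 and 195 RPM in the deletion. In BY4741ΔP, the third strain of series 1, OLE1 was at 191 to 230 RPM and RGS2 at 10.7 to 14.4 RPM. The noncoding SCR1 RNA of the signal recognition particle, which is not polyadenylated in bulk, was at 14.8, 45.6 and 31.4 RPM in BY4741 of series 1 and at 2.73 to 7.71 RPM in the other 7 libraries. Its part in the construct effects was not tested.

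Of the 379 called differences, 98 were called in the same direction with each of the 3 choices of control: BY4741 of the own series, all 5 BY4741 libraries, and BY4741 of the other series. These were 41 of 165 above 0 and 57 of 214 below 0. Lowest in the second group were PHO89, PHO5, YGR109W-B, PHM6, GIT1, HPF1, GRE1, SPL2, PHO12, HXT5 and PHO11. RRP12, NOG1, UTP20, RRP5 and UTP10 of the ribosome biogenesis list were in it too, and HXK1, RTC3, GRE3 and UGA1 were in the first group. The choices share the mutant libraries, so that they are not independent of one another. The difference with all 5 BY4741 libraries is the mean of the differences with own-series and other-series controls, so its sign follows from theirs. It removed no gene, as the same 41 and 57 were already called in both of those.

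Few members of the other lists parted, and their counts stand against 13.7% of all genes called higher and 8.55% called lower in the construct, 0.397% and 0.103% in the deletion, and 2.85% and 3.69% in the difference. Among 13 zinc genes, 5 fell in the construct and IZH1 and FET4 had differences below 0, with a median of -0.38 that turned to 0.13 with all 5 BY4741 libraries as control. Of 29 respiratory chain and TCA cycle genes 11 rose in the construct, and none of 29 had a called difference. Nitrogen catabolite genes gave 6 rises and 1 fall of 21 in the construct, with a difference above 0 for UGA1 and below 0 for PUT1. Of 17 purine genes 3 fell in the construct, and IMD2 had a difference of -0.42 ± 0.11 (limma adjusted p = 0.035), a call lost without any 1 of 8 libraries (0.0561 to 0.133), as were those of FET4, PUT1 and UGA1 without some libraries. Sulfur amino acid genes gave 3 rises and 1 fall of 20, and inositol and phospholipid genes 2 rises and 1 fall of 14, with no called difference in either. The 17 iron genes and the 26 amino acid genes under Gcn4 had no call in the construct, the deletion or the difference. The deletion called no member of these lists, which is near its share over all genes.

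The genes around PHO84 and CYC1 were read as well. TUB3 had 229 to 247 RPM in series 1 and 192 to 203 RPM in series 2 and was called in neither effect. PGA3 fell by 0.25 and NDI1 rose by 0.23 in the construct, and none of the 4 tested neighbours had a called difference. YML122C, the reading frame next to PHO84, stayed at or under 1.10 RPM and was not tested. CYC1 had 23.7 to 46.6 RPM in BY4741 of series 1, 28.8 to 33.3 RPM in the construct, 20.6 and 32.2 RPM in BY4741 of series 2 and 27.5 and 29.6 RPM in the deletion. UTR1 beside CYC1 rose by 0.20 in the construct, and none of 5 genes of that list had a called difference. Over all genes, 22.2% were called in the construct and 6.54% in the difference. The absence of called differences among so few genes is thus near what that share gives.

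Cell type markers matched mating type a in all groups. STE2, the receptor for alpha factor, had 531 to 646 RPM and BAR1 145 to 215 RPM over the 10 libraries. MFA1, a gene of the a factor, had 94.3 to 203 RPM in series 1 and 34.8 to 51.0 RPM in series 2. Of the 4 genes specific to alpha cells, MFALPHA1 and MFALPHA2 stayed at or under 1.24 RPM and STE3 at or under 4.00 RPM, while SAG1 was at 21.8 to 36.7 RPM. Summed over STE3 and SAG1, the level was 25.2 to 29.6 RPM and 29.9 to 33.8 RPM in BY4741 of series 1 and the construct, and 25.2 to 38.0 RPM and 34.7 to 36.1 RPM in BY4741 of series 2 and the deletion. Of 17 mating and a-specific genes, SST2 rose and PRM10 and RGS2 fell in the construct, with differences below 0 for PRM10 and RGS2 alone. Over all genes, 22.2% were called in the construct, so that the number of construct calls is near that share, and 3.69% had a difference below 0. LEU2, MET17 and URA3, which BY4741 lacks, were listed at 0 in all 10 libraries, and HIS3 had 95.3 to 141 RPM.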

How the data were processed

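The deposited table holds RPM (reads-per-million values) made by the authors; HISAT2, featureCounts and edgeR are named in the submitters' processing notes without roles. Per the labels' protocols, a stranded kit was used on purified mRNA. The genome build, annotation and strand setting are not given in the sources used here, so sense and antisense reads cannot be told apart, and no coordinates or sequences are printed. Of 7127 lines, 7123 held values. Every RPM value was whole within 0.01 reads when divided by the RPM of 1 read, which gave the read counts used in the alternatives. That BY4741 1 to 3 belong to series 1 was inferred from numbers and the design text.

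Effects were fitted with limma 3.58.1 (R 4.3.3; empirical Bayes variances following the mean) on log2(RPM + 1), with 1 mean for each of the 4 groups, so that the effects share 1 spread estimate, and were called at adjusted p under 0.05. Intervals of effects use the lowest total degrees of freedom, 12.9, and those of read ratios are exact 95% intervals that cover counting error only. The scripts were tested on simulated data. Alternatives were pseudocounts, filter, scalings, edgeR 4.0.16, DESeq2 1.42.0 and limma-voom on recovered reads, a replicate block, other controls and leaving out libraries. No library was a copy of another of its group.

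Lists and members were chosen with earlier results of these data known. Genes named by rule are the PHO regulon with PHO4; the 10 largest called differences in each direction whose mean log2 level was 3 or more and whose groups stood apart in an effect; genes called in both effects; and up to 3 members of each list. All genes called in the deletion, and PHO3, CYC1, HSP12, CTT1, GLC3, GPH1, HXT1, HXT4, HXT6, HXT7, UGA1, STE2, MFA1 and BAR1, were added after values were seen, as were other list members named by their calls and the counts by choice of control.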

Additional observations from a re-analysis of the deposited data

Results flagged for a closer look

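For 26 genes named by rule, the effects of the 2 strains differed by the test of the difference itself (limma, adjusted over all genes tested); values are the construct effect minus the deletion effect in log2(RPM + 1). Phosphate genes gave -4.97 for PHO89, -4.36 for PHO5, -2.90 for PHM6, -2.39 for GIT1, -2.07 for SPL2, -1.93 for PHO12, -1.51 for PHO11 and -0.45 for PHO8. Other differences below 0 were -2.52 for YGR035C, -2.26 for SCR1, -2.22 for MNC1, -2.14 for HPF1, -2.03 for RGS2, -1.95 for STP4, -1.81 for OLE1 and -1.78 for YKR075C. Those above 0 were 1.48 for GSY1, 1.10 for HXK1, 1.09 for RGI1, 1.00 for TSL1, 1.00 for PGM2, 0.95 for HSP82, 0.94 for HSP42, 0.91 for YBR184W, 0.88 for DCS2 and 0.87 for GAD1. PHO89, PHO5, PHM6, GIT1, PHO12, PHO11 and HPF1 kept their call in the difference under all 22 alternatives run. No group held enough libraries for a search for libraries far from the rest.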

How the results depend on the processing

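The choice of control moved most. With BY4741 of the other series as control, which by construction shifts the comparison by the difference between the BY4741 groups, 2550 genes were called in the construct, 2741 in the deletion, 3285 in the difference and 70 in both effects. The difference then changed sign, to 0.54 for PHO86, 1.64 for PHM7, 0.48 for VTC1, -0.93 for GSY1, -0.082 for TSL1, -0.31 for HSP82, -0.0701 for HSP42, 1.71 for YGR035C, 3.28 for SCR1, 2.12 for MNC1, 2.65 for RGS2, 1.79 for STP4, 0.87 for OLE1, 2.12 for YKR075C, 0.25 for PHO90, 0.16 for SYG1, 0.10 for HSP26, 0.0373 for NSR1, 0.45 for HXT2, 0.26 for HXT3, 1.20 for IZH1, 0.62 for FET4, 1.26 for PUT1, 1.68 for PRM10, 0.83 for PDC6, -0.80 for GLC3, 0.82 for HXT1 and 0.66 for HXT4. The construct effect turned to 0.12 for PHO86 and 0.0903 for VTC1. With all 5 BY4741 libraries as control, which makes the difference a direct comparison of the mutants, the counts were 303, 19, 863 and 5, and the difference turned to 0.51 for SCR1, 0.31 for RGS2, 0.17 for YKR075C, 0.0236 for IZH1, 0.28 for PUT1 and 0.13 for PRM10.

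On the recovered reads edgeR called 1203 genes in the construct, 26 in the deletion and 403 in the difference. DESeq2 called 101 genes in the deletion, 586 in the difference and 31 in both effects. The difference had 237 calls without the filter and 233 with all 21 libraries in the fit. Each effect fitted on its own 2 groups, an alternative chosen after seeing the data, left 11 calls in the deletion and 3 in both. The cause was not tested for these. Leaving out libraries gave 711 to 1592 calls in the construct, 13 to 385 in the deletion, 66 to 545 in the difference and 4 to 93 in both. Scaling by median ratios gave 480 higher and 694 lower calls in the construct and 127 and 295 in the difference. The numbers do not pair BY4741 and Tpho84-Tcyc1 libraries (same-number correlations of -0.22, 0.25 and 0.17), and not every library correlated best with its own number; with a replicate block the difference had 320 calls, the deletion 22 and both effects 6. With 2 libraries in each group of series 2, small deletion effects may pass unseen.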
